A study of Mus musculus with 6 samples.

Results

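The 10 genes described here encode apolipoproteins (Apob, Apoa1, Apoa2, Apoa4, Apoc1, Apoc3 and Apoe), the lipid transfer protein that loads apolipoprotein B (Mttp), and the plasma carrier proteins transthyretin (Ttr) and albumin (Alb). They were selected on the measured group difference, out of 18193 measured genes, because Apob, Apoa1 and Ttr were higher after Pik3ca knockdown. Their differences are therefore given as a description, and the count of members past limma's threshold, which comes from the contrast that chose them, supports nothing. All 10 were measured, through 19 probe sets annotated with that gene alone. A probe set is the group of short probes that reads 1 transcript on an Affymetrix array.

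The cells were 344SQ, a murine lung cancer line grown in serum-containing medium. One group of 3 samples carried a vector for a short hairpin RNA (shRNA) against PIK3CA, and the other group of 3 carried a control shRNA. The vectors were introduced by lipid transfection, so all 6 samples share the line and that procedure; how long after transfection RNA was taken, and whether 1 hairpin or several were used, was not stated in the labels. Nothing in the labels says that replicates came from separate cultures, so a p-value here reflects sample-to-sample spread that could be technical.

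Lipoproteins are particles of lipid and protein that carry fat and cholesterol in blood. Apolipoprotein B forms the scaffold of very low density lipoproteins and chylomicrons and needs the microsomal triglyceride transfer protein, encoded by Mttp, to take up lipid. The smaller apolipoproteins of the A, C and E classes move between particles and direct lipases, lecithin-cholesterol acyltransferase and receptors. Liver and small intestine are the main sources of most of them, yolk sac endoderm also makes several, and apolipoprotein E is made widely, including by macrophages. Lung epithelium is not known as a main source of these proteins.

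The start regions of Apob, Apoa1 and Apoe are shown first, for what they share and do not share in sequence. On their brightest probe sets these 3 members read higher on every PIK3CA shRNA array than on every control array. Ttr did too, but windows on its chromosome, 18, were left out, so its start region is not shown. From the RefSeq table of build GRCm38.p6, start regions of 7 of the 10 genes were used, in 10 windows. Each ran from 250 bases before to 50 after the annotated start. Capitals mark matches, on either strand, to the TATA box (TATAAA), an HNF4-type half-site (AAAGGTC or AAAGTCC), the forkhead core (GTAAACA) and an insulin response core (CAAAACA). For Apoe, the window of its 3 with the most matches is printed. All 3 lie inside the annotated span of this minus-strand gene, 19696244 to 19701310, and the printed one lies furthest downstream. The Apob window is chr12:7977427-7977726 on the plus strand, the Apoa1 window chr9:46228380-46228679 on the plus strand, and the Apoe window chr7:19698349-19698648 on the minus strand.
Apob: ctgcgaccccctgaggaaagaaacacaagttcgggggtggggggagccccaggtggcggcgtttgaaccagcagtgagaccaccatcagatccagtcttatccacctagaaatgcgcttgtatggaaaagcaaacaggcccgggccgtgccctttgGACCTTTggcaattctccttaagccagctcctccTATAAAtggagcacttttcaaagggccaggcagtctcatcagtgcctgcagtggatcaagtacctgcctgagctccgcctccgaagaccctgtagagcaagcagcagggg
Apoa1: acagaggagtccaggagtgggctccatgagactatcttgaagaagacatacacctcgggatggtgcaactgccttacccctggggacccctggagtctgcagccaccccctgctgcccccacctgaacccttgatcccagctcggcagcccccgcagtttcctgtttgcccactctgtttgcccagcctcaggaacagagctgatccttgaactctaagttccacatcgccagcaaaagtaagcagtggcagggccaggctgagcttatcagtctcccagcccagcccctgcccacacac
Apoe: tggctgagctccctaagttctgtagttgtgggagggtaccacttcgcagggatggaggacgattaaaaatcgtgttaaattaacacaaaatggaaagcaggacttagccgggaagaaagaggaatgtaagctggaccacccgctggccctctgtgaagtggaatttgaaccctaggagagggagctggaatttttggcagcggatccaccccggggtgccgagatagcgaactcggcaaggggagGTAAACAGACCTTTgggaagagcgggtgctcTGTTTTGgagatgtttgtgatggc
Apob held 1 HNF4-type match and 1 TATA box, and Apoa1 held a match to none of these 4 letter patterns. The printed Apoe window held 1 HNF4-type, 1 forkhead and 1 insulin response match, and the forkhead match ends directly before the HNF4-type one without overlap. Over all 32851 windows of this length, 13.6% held the TATA pattern, 7.80% an HNF4-type, 3.65% the forkhead and 6.28% the insulin response pattern. These shares are per single window, whereas the printed Apoe window was picked for having the most matches. In it, the HNF4-type and insulin response matches lie after the annotated start. Another Apoe window held 2 overlapping TATA matches, 1 on each strand. The remaining Apoe window, chr7:19699139-19699438, the furthest upstream of the 3, held a match to none of the patterns. Among the other members' windows, the 2 of Apoa2 held 2 HNF4-type matches, 1 forkhead match and 1 TATA box between them, while Mttp, Alb and Apoa4 held none. A match describes letters only. The patterns were chosen after the data were seen.

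The intensities are linear, were scaled here to a common median, and carry no detection calls. Array medians as deposited lay between 134.6 and 135.0, and no array stood apart in its quartiles. Each difference is the PIK3CA shRNA mean less the control mean of log2(intensity + 16); the added 16, the pseudocount, shrinks the differences of dim genes. Pik3ca, the targeted gene, was read by 6 probe sets. On 5 of them the PIK3CA shRNA arrays lay below all control arrays, and the brightest read 1235 ± 14.5 in PIK3CA shRNA cells and 2380 ± 64.5 in control cells (SD, n = 3 each). In a bulk sample, fewer cells making a transcript and less of it per cell cannot be told apart.

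Apob was the member with the largest difference, but its 2 probe sets differed in opposite directions. The brighter one, 1455593_at, read 874, 762 and 861 on the PIK3CA shRNA arrays and 83.1, 92.6 and 104 on the control arrays. Its mean was 8.93-fold higher in PIK3CA shRNA cells, a log2 difference of 2.96 with a standard error of 0.10. The other Apob probe set, 1457554_at, read 102, 126 and 125 in PIK3CA shRNA cells and 164, 160.3 and 199 in control cells. It was lower on every PIK3CA shRNA array than on any control array, with a log2 difference of -0.51 (standard error 0.12). Averaged over both probe sets, the Apob difference was 1.23. Neither probe set carries a suffix that marks shared probes, and which part of the transcript each reads was not analysed here.

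**Figure D1:**
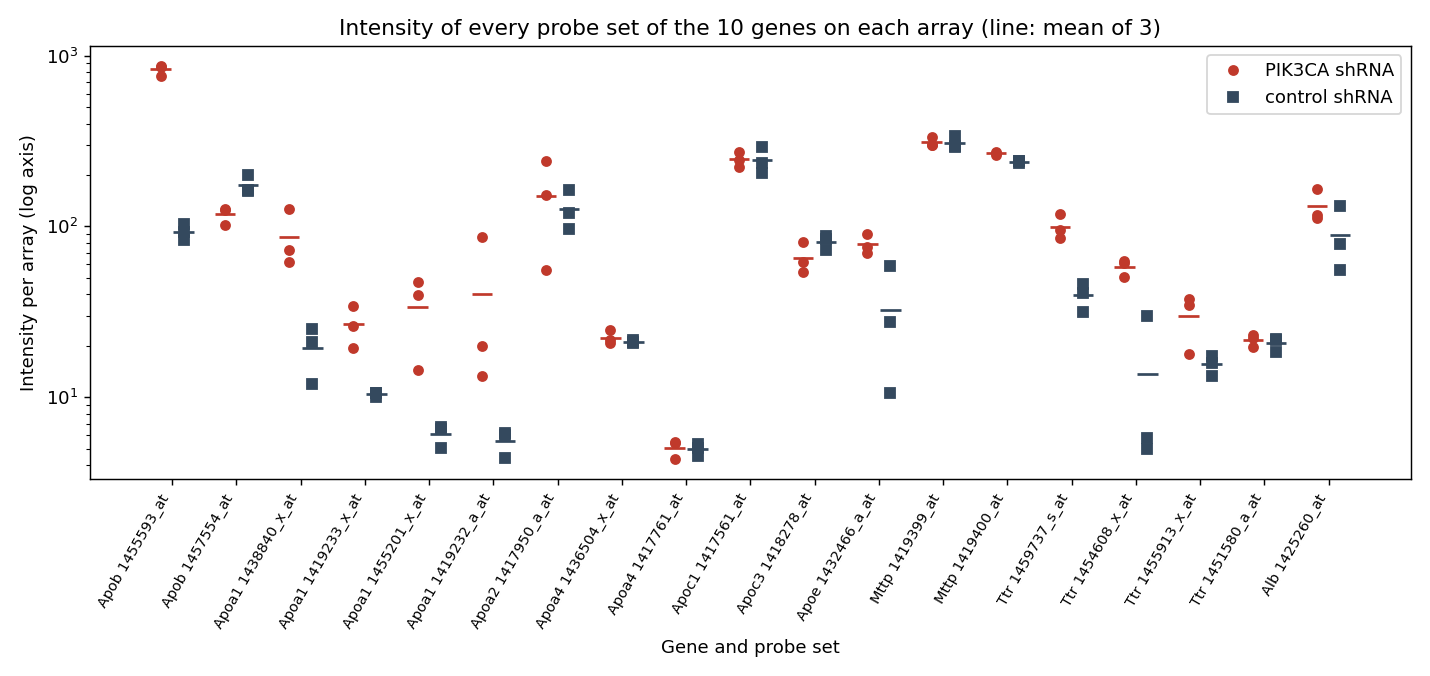
Intensity on a log axis for each of the 19 probe sets of the 10 genes, with 1 circle per PIK3CA shRNA array, 1 square per control shRNA array and a line at each mean of 3. The brighter Apob probe set lies at 762 to 874 on the PIK3CA shRNA arrays and at 83.1 to 104 on the control arrays, while the other Apob probe set lies lower on the PIK3CA shRNA arrays.

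Apoa1, the main protein of high density lipoproteins and an activator of lecithin-cholesterol acyltransferase, was dim in both groups but higher in PIK3CA shRNA cells on all 4 of its probe sets. Its brightest probe set, 1438840_x_at, read 61.6, 72.9 and 127 in PIK3CA shRNA cells and 21.1, 25.2 and 12.0 in control cells. The groups did not overlap, and the log2 difference was 1.51 with a standard error of 0.27. On 1419232_a_at the values were 86.7, 13.3 and 19.98 in PIK3CA shRNA cells and 4.41, 6.20 and 6.03 in control cells, so 1 array gave most of the mean. On the remaining pair the ranges were 19.5 to 34.4 (1419233_x_at) and 14.5 to 47.2 (1455201_x_at) in PIK3CA shRNA cells, against 10.1 to 10.7 and 5.06 to 6.69 in control cells. The array with the highest Apoa1 value was PIK3CA shRNA replicate 1 on 3 of the probe sets and replicate 3 on the brightest. Because many of these values are below or near the pseudocount, the size depended on it: the brightest probe set differed by 2.10 at a pseudocount of 1 and by 0.84 at 64.

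Ttr, which encodes the carrier of thyroxine and of retinol-binding protein, had 4 probe sets that did not move alike. The brightest, 1459737_s_at, read 85.4, 119 and 95.1 in PIK3CA shRNA cells and 31.4, 46.2 and 41.0 in control cells, a log2 difference of 1.06 (standard error 0.15). On 1454608_x_at the values were 63.1, 50.3 and 60.8 in PIK3CA shRNA cells and 5.0, 5.78 and 30.1 in control cells, and the groups again lay apart. The difference on 1455913_x_at was 0.52, with 34.9, 17.8 and 37.5 in PIK3CA shRNA cells and 17.4, 15.9 and 13.3 in control cells. Those 3 probe sets carry the suffixes s or x, by which Affymetrix marks probes that can also read other, similar transcripts. The 1 Ttr probe set without such a suffix, 1451580_a_at, read 23.1, 22.3 and 19.8 in PIK3CA shRNA cells and 18.3, 21.6 and 22.0 in control cells, and the groups overlapped (0.04, standard error 0.08). Of the Apoa1 probe sets, 3 carry the x suffix, and the 1 that does not is 1419232_a_at. Whether other transcripts contributed to the s and x probe sets was not tested.

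Apoe, a ligand of lipoprotein receptors, was also higher on every PIK3CA shRNA array, on its single probe set. It read 89.8, 75.9 and 70.0 in PIK3CA shRNA cells and 58.6, 27.8 and 10.6 in control cells. The control arrays differed widely among themselves, from 10.6 to 58.6, and the log2 difference of 1.09 had a standard error of 0.37. Alb, the main protein of plasma, read 113, 167 and 117 in PIK3CA shRNA cells and 132, 55.9 and 79.4 in control cells. The Alb groups overlapped, since control replicate 1 lay above 2 of the PIK3CA shRNA arrays, and the difference was 0.54 (standard error 0.29).

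The remaining 5 members were at similar levels in both groups, or varied more within a group than between them. Mttp, whose product loads apolipoprotein B with lipid, read 335, 301 and 300.4 in PIK3CA shRNA cells and 292, 339 and 297 in control cells on 1419399_at (0.01, standard error 0.09). Its other probe set, 1419400_at, read 271, 263 and 271 in PIK3CA shRNA cells and 242, 234 and 240.4 in control cells; these groups lay apart by a small step of 0.16. Mttp was thus close to even between the groups while the brighter Apob probe set differed by 2.96. Apoa2, the second most abundant protein of high density lipoproteins, read 55.4, 153 and 243 in PIK3CA shRNA cells and 96.6, 163 and 121 in control cells. Its PIK3CA shRNA arrays enclosed the control arrays, and its sign changed when control replicate 1 (-0.10), PIK3CA shRNA replicate 2 (-0.04) or PIK3CA shRNA replicate 3 (-0.35) was left out.

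Among the C class, Apoc1, an inhibitor of receptor-mediated lipoprotein uptake, read 245, 273 and 224 in PIK3CA shRNA cells and 292, 206 and 234 in control cells (0.03, standard error 0.14). Apoc3, an inhibitor of lipoprotein lipase, was the member with the lowest difference. It read 54.3, 80.8 and 62.0 in PIK3CA shRNA cells and 84.4, 72.4 and 87.6 in control cells, with overlapping groups (-0.26, standard error 0.14). Apoa4, an intestinal apolipoprotein, was dim on both probe sets: 20.7 to 24.6 in PIK3CA shRNA cells and 20.9 to 21.6 in control cells on the brighter, and 4.33 to 5.48 in PIK3CA shRNA cells and 4.55 to 5.32 in control cells on the other.

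As a list, 3 of the 10 members (Apob, Apoa1 and Ttr) passed adjusted p 0.05 in limma and were higher, and 0 were lower, where 5.88% of all genes were called higher and 5.62% lower. These 3 are the genes for which the list was chosen, so nothing is read from that count. Apoa1 was not called without PIK3CA shRNA replicate 2 or without any 1 of the control replicates, and Apoe was called without control replicate 1. The groups did not overlap, with PIK3CA shRNA higher, in 4 members, against 16.1% of all genes, and in 0 with PIK3CA shRNA lower, against 17.0%. By probe set, 10 of 19 lay apart upward, 1 lay apart downward and 8 overlapped, where 13.0% of all probe sets lay apart upward and 14.2% downward. The members' median difference was 0.30, against -0.01 over all genes. These counts of groups apart and this median include the 3 genes for which the list was chosen, so nothing is read from them either. In the higher group only 3 members (Apob, Apoc1 and Mttp) were above the median gene, at an intensity of 245.8, so most of these differences are between dim readings.

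**Figure D2:**
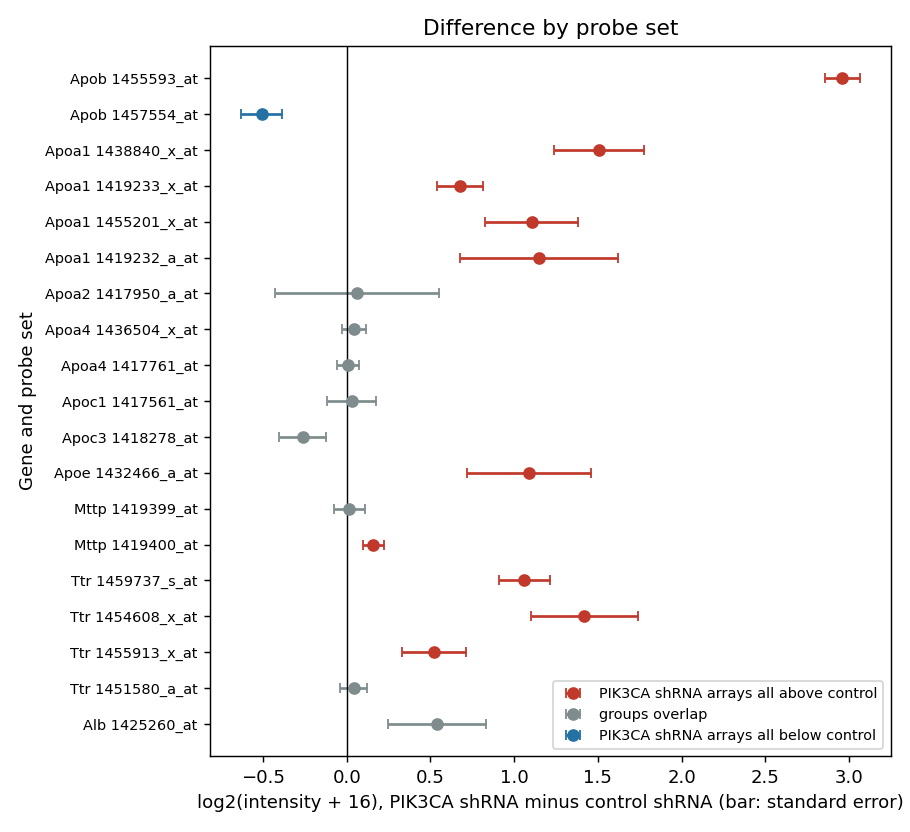
Difference between PIK3CA shRNA and control shRNA on the log2(intensity + 16) scale for each of the 19 probe sets, with bars for the standard error and colour for whether the 3 arrays of each group overlap. All 4 Apoa1 probe sets lie above 0, the 2 of Apob lie on opposite sides of it, and 1 of the 4 Ttr probe sets lies at 0.04.

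Members that lie next to each other on a chromosome did not share a difference. Apoa1, Apoc3 and Apoa4 are adjacent on chromosome 9 (GRCm38.p6: Apoa1 at 46228630 to 46230469, Apoc3 at 46233050 to 46235636, Apoa4 at 46240844 to 46243458). Apoa1 differed by 1.51, Apoc3 by -0.26 and Apoa4 by 0.04. None of the 3 nearest measured genes on either side passed limma's adjusted p 0.05. On the side of Apoa4 they were Apoa5 (-0.22, adjusted p = 0.161), which encodes a further regulator of triglyceride, Zpr1 (-0.03) and Bud13 (0.42). On the side of Apoa1 they were Sik3 (-0.10), Pafah1b2 (-0.06) and Sidt2 (-0.03).

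The second cluster, on chromosome 7, holds Apoc1 (19689480 to 19692659) and Apoe (19696244 to 19701310) with Apoc4 and Apoc2. Apoc2, which is no member and encodes the activator that lipoprotein lipase requires, rose in PIK3CA shRNA cells. It read 471, 433 and 464 on the PIK3CA shRNA arrays and 126, 102 and 98.5 on the control arrays, a 4.19-fold difference in means. By limma it was higher by 1.92 ± 0.10 (standard error; adjusted p = 0.000549), and the difference stayed between 1.59 and 2.06 on the log2 scale under every alternative run. Between Apoc2 and Apoc1 lies Apoc4, which was dim, at 12.5 ± 6.10 in PIK3CA shRNA cells and 11.4 ± 1.46 in control cells (SD, n = 3 each). Beyond the cluster, Clptm1 (-0.17), Tomm40 (0.12), Nectin2 (0.41) and Bcam (-0.30) did not pass. Apoc2 thus passed the test 17.9 kb from the start of Apoc1, whose arrays overlapped between the groups.

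**Figure D3:**
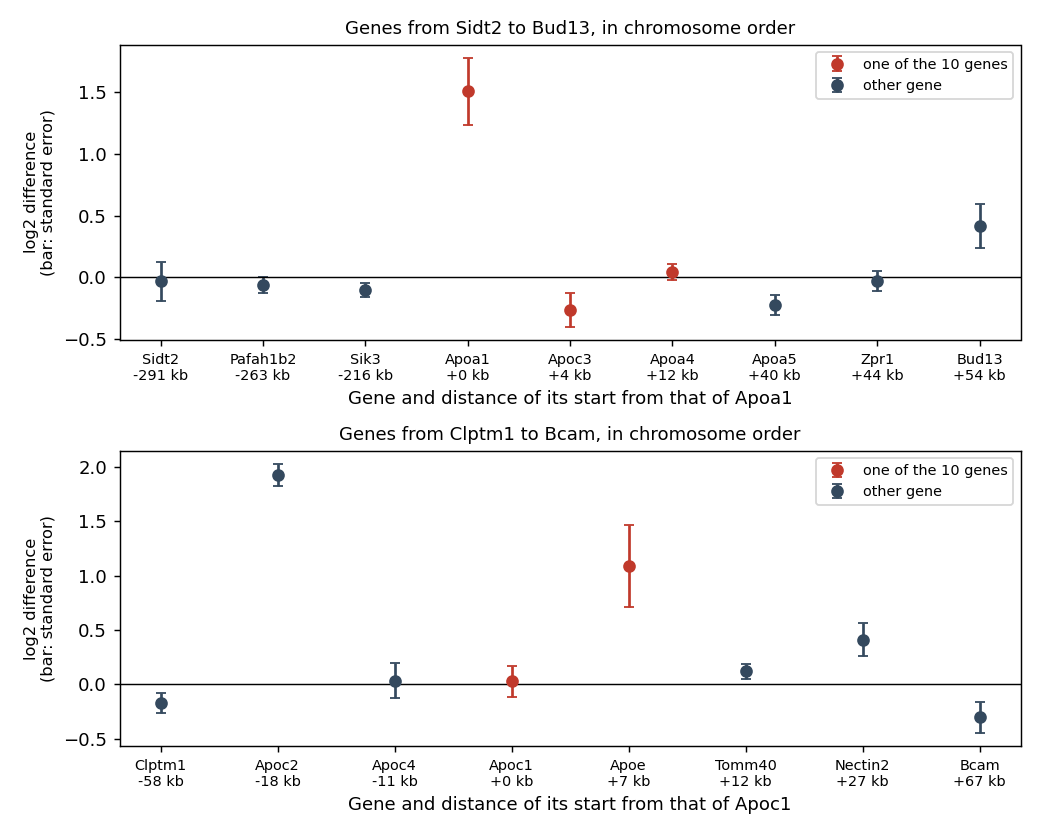
Differences on the log2(intensity + 16) scale, with standard errors, for the measured genes around the chromosome 9 and chromosome 7 apolipoprotein clusters, in chromosome order with distances in kb from the start of Apoa1 (upper panel) and Apoc1 (lower panel). Apoa1 at 1.51, Apoc2 at 1.92 and Apoe at 1.09 lie above neighbours that lie between -0.30 and 0.42.

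The genes whose profile over the 6 arrays was most like that of Apob were found by the root mean square distance between log2 profiles centred on the control mean, among 9392 genes brighter than the median gene in at least 1 group (9393 for Apoa1 and Ttr, which are dimmer themselves). They were Tcim (distance 0.11), a small regulator of transcription and immune response, Clic6 (0.15), an intracellular chloride channel family member, and Cdx2 (0.17), a homeobox factor of intestinal epithelium. Cdx2 read 788, 879 and 920 in PIK3CA shRNA cells and 82.1, 118 and 93.5 in control cells. For Apoa1 the nearest were Clec2d (0.20), Trim12c (0.22) and Ly6k (0.25), and for Ttr they were Olfml2b (0.13), Abcc4 (0.14) and Gbp2b (0.14). Ly6k differed by 1.25 on the probe set used here and by -0.75, with overlapping groups, on its other probe set. With 3 arrays in each group, likeness by this measure is mostly likeness in the size of the group difference.

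Of 24 further apolipoproteins and lipoprotein-associated plasma proteins, 19 were measured, and Apoc2 was the 1 that rose while 0 fell. The list's median was -0.05, against -0.01 over all genes. Clu, which encodes the chaperone clusterin, also called apolipoprotein J, was named after its value was seen; it was bright and differed by -0.05, which did not pass the test. Of the 48 measured members among 58 other hepatic plasma proteins, 2 rose and 1 fell, with a median of -0.01. Cfb, complement factor B, rose to 224 ± 10.98 in PIK3CA shRNA cells, against 29.9 ± 3.47 in control cells (SD, n = 3 each; 2.39, limma adjusted p = 0.000160). Itih2, an inter-alpha-trypsin inhibitor heavy chain, rose by 1.27 (limma adjusted p = 0.00235). Serpina6, corticosteroid-binding globulin, fell by 0.50 (limma adjusted p = 0.0139) at dim levels. The Serpina6 call was lost in 3 of the 6 fits that left out 1 array, with differences of -0.55 to -0.46 over all 6. Afp, alpha-fetoprotein, and Rbp4, retinol-binding protein and the partner of transthyretin, were named after their values were seen. Afp averaged 4501 in PIK3CA shRNA cells and 4166 in control cells (0.11), and Rbp4 averaged 7175 in PIK3CA shRNA cells and 7297 in control cells (-0.02), and neither passed the test.

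Among 25 measured genes of lipoprotein assembly and secretion, 2 rose and 3 fell, with a median of -0.10. Sec24d (-0.57) and Mia3 (-0.43), which act in loading large cargo into vesicles that leave the endoplasmic reticulum, fell, as did the intestinal fatty acid-binding protein gene Fabp2 (-1.38). Cidec, a lipid droplet protein (0.71), and Arfrp1, a GTPase of the Golgi (0.25), rose. The calls of Arfrp1 and Mia3 (then -0.37) were lost with the mean of a gene's probe sets. The Cidec call was lost under that setting too, although Cidec has a single probe set and its difference stayed at 0.71. With 1 array left out at a time, the call was lost in 6 of 6 fits for Arfrp1 and in 5 for Cidec and Fabp2, at the same signs. Over all 6 fits Arfrp1 ranged from 0.22 to 0.27, Cidec from 0.58 to 0.85 and Fabp2 from -1.55 to -1.16. Among 27 measured receptors, lipases and transporters, 3 rose and 2 fell, with a median of -0.04. Angptl4, an inhibitor of lipoprotein lipase, rose to 1142 ± 146 in PIK3CA shRNA cells, against 520 ± 68.8 in control cells (SD, n = 3 each; 1.11, limma adjusted p = 0.00890). Lrp1 (0.63), a receptor for remnants that carry apolipoprotein E, and the lipid transporter gene Abca7 (0.70) rose. On the other, dimmer Lrp1 probe set the groups overlapped, with a difference of 0.10. Vldlr (-0.32), the receptor for very low density lipoprotein, and Lmf1 (-0.35), a maturation factor of lipases, fell. The calls of Abca7 (0.58 to 0.79), Vldlr (-0.35 to -0.29) and Lmf1 (-0.38 to -0.32) were lost in 6 of 6 fits with 1 array left out. That of Lrp1 was lost in 5, with differences of 0.57 to 0.73 over all 6. The Lmf1 call was also lost with the mean of its probe sets.

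Of 33 measured transcription factors that act on hepatic and gut genes, 5 rose and 3 fell, with a median of 0.10. Beside Cdx2 (2.96, limma adjusted p = 0.000345), Hnf4a, a nuclear receptor that acts on hepatic genes, rose. It read 3930 ± 250 in PIK3CA shRNA cells, against 1778 ± 77.9 in control cells (SD, n = 3 each). Its log2 difference was 1.14 (limma adjusted p = 0.00124). The part of these factors in the members' differences was not tested. Onecut2 (0.73) and Cebpb (0.44) also rose, and Foxo3 (-0.57) fell. The other calls, Foxa1 (0.38) upward and Ppargc1a (-0.65) and Xbp1 (-0.32) downward, were named after their values were seen. With 1 array left out, the call was lost in 5 of 6 fits for Foxa1 and Ppargc1a and in 6 for Xbp1. Over all 6 fits Foxa1 ranged from 0.36 to 0.40, Ppargc1a from -0.76 to -0.57 and Xbp1 from -0.35 to -0.29.

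Markers of other cell types moved unevenly beside these genes. Of 15 measured enterocyte markers, 5 rose (Lgals4 4.42, Cdh17 3.36, Vil1 2.57, Krt20 2.44 and Guca2a 2.42) and Fabp2 fell, with a median of 0.10. With 1 array left out, the call was lost in 5 of 6 fits for Vil1 and Fabp2 and in 4 for Guca2a. Over all 6 fits Vil1 ranged from 2.27 to 3.13 and Guca2a from 2.20 to 2.82. Lgals4, Cdh17 and Krt20 were called in all 6. Vil1, named after its value was seen, was also not called at a pseudocount of 1, at a difference of 3.35. The markers' summed intensity was 10052 to 10639 per array in PIK3CA shRNA cells and 2103 to 2206 in control cells. Most of that difference came from Lgals4 and Cdh17. Lgals4 averaged 4173 in PIK3CA shRNA cells and 181 in control cells, and Cdh17 averaged 3443 and 323. Of 16 hepatocyte markers, 1 rose (Hao1, 0.63) and 0 fell, with a median of -0.06. With dim genes left out, Hao1 was among those not tested, and of the 5 hepatocyte markers left 0 rose and 1 fell (Cps1, -0.41, named after its value was seen). Under that filter 2975 of 10916 genes were called in either direction. The hepatocyte sums were 1448 to 1692 in PIK3CA shRNA cells and 1503 to 1699 in control cells. The asialoglycoprotein receptor gene Asgr1 averaged 5.04 in PIK3CA shRNA cells and 5.34 in control cells. Of 12 visceral endoderm markers, 0 rose and Rhox5 fell (-1.06), with a median of -0.05 and sums of 5933 to 6353 in PIK3CA shRNA cells and 5792 to 6179 in control cells. Of 13 macrophage markers, 2 rose (Cd14 0.65 and Mrc1 0.60), with a median of 0.07. The macrophage sums were 4346 to 4815 in PIK3CA shRNA cells and 3230 to 3362 in control cells. The Mrc1 call was lost without any 1 PIK3CA shRNA array, and its difference was 0.51 to 0.64 over all 6 fits with 1 array left out. Ptprc, the pan-leukocyte marker, averaged 58.6 in PIK3CA shRNA cells and 63.2 in control cells. The part of any of these cell types in the members' values was not tested.

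The labelled cell type was checked in the same way. Of 14 general epithelial markers, Ocln rose (0.99) and 0 fell, with a median of -0.03, and the keratin gene Krt8 was bright, at an average of 12469 in PIK3CA shRNA cells and 11903 in control cells. Of 13 alveolar markers 0 rose and Aqp5 fell (-2.31), with a median of -0.06. Sftpc averaged 90.2 in PIK3CA shRNA cells and 94.2 in control cells, and Nkx2-1 averaged 102 in PIK3CA shRNA cells and 116 in control cells, both below the median gene. Of 10 fibroblast markers 0 rose and Dcn fell (-0.75), with a median of -0.10. Dcn was dim, at 37.6 in PIK3CA shRNA cells and 74.1 in control cells. Its other, still dimmer probe set differed by 0.09, with the PIK3CA shRNA arrays above all control arrays. Every list was described by its counts and its median, beside 11.5% of all genes called in either direction.

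**Figure D4:**
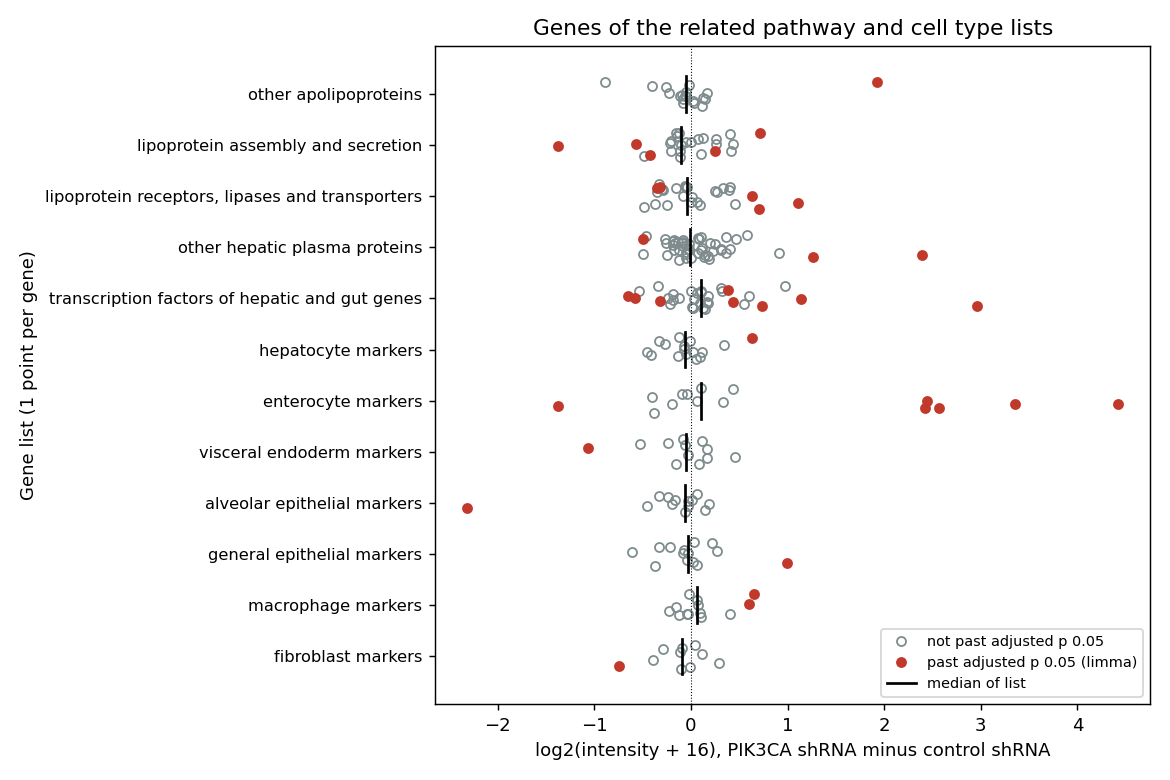
Differences on the log2(intensity + 16) scale for the genes of 12 related pathway and cell type lists, 1 point per gene, filled where limma's adjusted p passed 0.05, with a line at each list's median. Apoc2 is the filled point among the other apolipoproteins at 1.92, and 5 enterocyte markers lie at 2.42 or above while 9 genes of that list were not called.

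The members' differences kept their sign over the alternatives for Apob, Apoa1, Ttr, Apoe, Alb and Apoc3, apart from the single Apob probe set described above. Apob ranged from 1.23 to 3.15, with the low end from averaging its probe sets. Apoa1 ranged from 0.84 to 2.10, Ttr from 0.66 to 1.42, Apoe from 0.59 to 1.55, Alb from 0.30 to 0.82 and Apoc3 from -0.39 to -0.16. Without control replicate 3, the array with the lowest Apoe value, the Apoe difference was 0.72. The differences of Apoa2, Apoa4, Apoc1 and Mttp changed sign under at least 1 alternative.

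**Figure D5:**
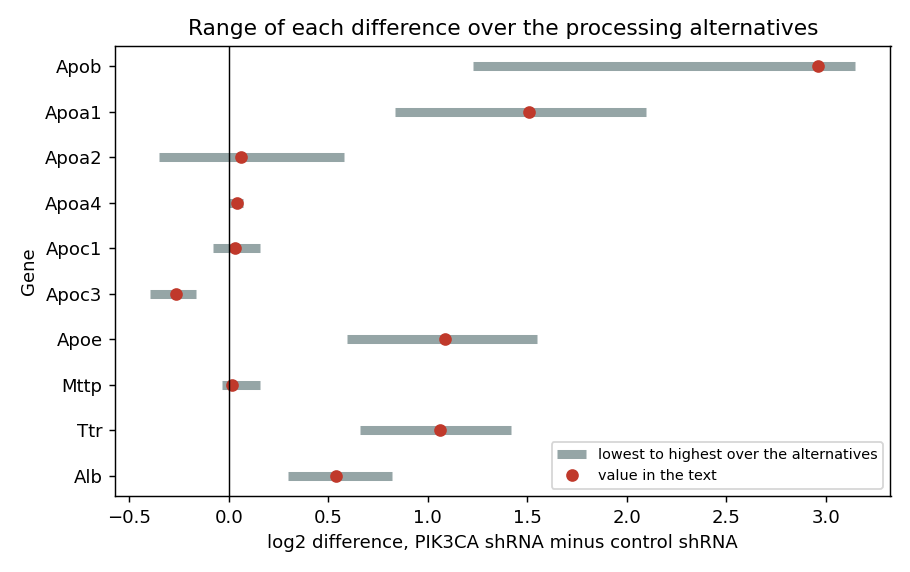
Difference on the log2 scale for each of the 10 genes (points) with bars from the lowest to the highest value over the processing alternatives, each single other probe set excepted. The bars of Apob (1.23 to 3.15), Apoa1, Ttr, Apoe and Alb lie above 0, that of Apoc3 below it, and the others cross it.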

How the data were processed

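Expression was measured on 6 Affymetrix arrays, 3 with PIK3CA shRNA and 3 with control shRNA. The authors deposited linear intensities, 1 per probe set and array (45101 probe sets, 0.0359 to 17919), with nearly equal quartiles on all arrays; no label names how they were normalized. About 15.0% of an array's values lay below 16. Depth does not apply to arrays, and their number limits the precision.

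After 64 control probe sets were left out, arrays were brought to the same median and values converted to log2(intensity + 16). Names came from the platform annotation, and 34945 probe sets had 1 gene symbol, 932 several and 9160 none listed; 34741 matched the RefSeq table of GRCm38.p6 by gene identifier. Each gene was represented by its brightest probe set. Group differences were fitted by limma 3.58.1 under R 4.3.3 (two-sided, Benjamini-Hochberg over 18193 genes, threshold 0.05), and single probe sets were fitted in the same way over all non-control probe sets. The fit was tested on simulated data. Python 3.11.15 with matplotlib 3.10.9 made the plots.

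The members and gene lists were chosen with earlier results of these data known. Of other lists, up to 5 called genes with the smallest adjusted p were named, with the 3 nearest profiles of Apob, Apoa1 and Ttr and the 3 nearest measured genes on each side of 2 clusters; genes named outside this rule are marked as such or are defining markers. Alternatives covered scaling, quantile normalization, pseudocounts of 1 and 64, a filter on the dimmest 40% of genes, the probe set per gene, the prior, array weights, a replicate block, a threshold of 0.01 and leaving out each array.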

Additional observations from a re-analysis of the deposited data

How the results depend on the processing

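Against 2093 genes called, a prior robust to outliers with a trend on intensity called 3192, a threshold of adjusted p 0.01 left 636, and 945 to 1138 were called when 1 array was left out. Members called numbered 1 at adjusted p 0.01 and 2 to 3 with 1 array left out. With dim genes left out only 3 members were tested and 1 was called, beside 2975 of 10916 genes. Ttr was not called when each gene was read from its most variable probe set by interquartile range. Among members called, Apob turned its sign, at -0.51 on its other probe set; of members not called, Apoa2, Apoa4, Apoc1 and Mttp turned theirs in 1 to 3 of the fits with 1 array left out. The cause was not tested. Same-numbered samples showed no shared deviation (r of 0.05, -0.02 and -0.02). With so few arrays this cannot settle whether the numbers pair them, and the labels do not say. With the replicate block 413 genes were called and Apoa1 was not; the block left 0 calls among assembly genes, 1 among receptors and lipases, 2 among transcription factors, 3 among enterocyte markers, and 0 each among hepatocyte, macrophage and fibroblast markers, while the other lists kept to within 1.5 times their counts.

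At adjusted p 0.01 the lists had 1 call for assembly, 1 for receptors and lipases, 5 for transcription factors, 3 for enterocyte and 0 for macrophage markers. At a pseudocount of 64 they had 8 for receptors and lipases, 6 for hepatic plasma proteins and 2 for general epithelial markers, and at 1 they had 3 for assembly. With dim genes left out, 2975 of the 10916 genes tested were called. Calls then numbered 10 of 19 for receptors and lipases and 3 of 6 for enterocyte markers. They numbered 2 of 5 for visceral endoderm, 2 of 10 for general epithelial and 0 of 3 for fibroblast markers. Of 5 hepatocyte markers the 1 called was then Cps1, lower, in place of Hao1, higher, which that filter removed. The mean of probe sets gave 2 each for assembly, visceral endoderm and general epithelial lists; the most variable probe set gave 3 for assembly and 2 each for visceral endoderm, alveolar and general epithelial lists; the trend gave 8 for receptors and lipases and 2 for general epithelial markers. With 1 array left out, calls ranged from 2 to 3 for assembly, 1 to 2 for receptors and lipases, 2 to 5 for hepatic plasma proteins, 5 to 7 for transcription factors, 3 to 6 for enterocyte markers, and 1 to 2 each for macrophage, visceral endoderm and general epithelial markers. The causes were not tested, apart from fewer genes or arrays where the setting itself removes them. No detection calls were available, so differences between readings near the pseudocount are limited by background.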
